A study of Mus musculus with 8 samples.

Results

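The genes described here are 10 genes that canonical Wnt signaling keeps on in pericentral hepatocytes, the cells that surround the central vein of each liver lobule. They were chosen by name: Axin2, Lgr5, Rnf43, Znrf3, Tbx3, Glul, Oat, Lhpp, Slc1a2 and Rhbg. All 10 are among the 26166 gene symbols of the count table. Their RNA was measured by bulk RNA-seq in the livers of diet-induced obese (DIO) mice, 4 given IXA4 and 4 given vehicle. IXA4 is a small molecule that activates the IRE1/XBP1s arm of the unfolded protein response. All mice were C57BL/6N males, bought at 14 weeks of age and kept for 3 weeks before treatment on a diet with 60% of kcal from fat. IXA4 was injected into the peritoneum once a day at 50 mg/kg for 8 weeks, and the vehicle held DMSO, Kolliphor EL, ethanol and saline. Libraries held 16986915 to 18390185 counts each, and are named by the group and replicate number of their column, since no column could be tied to a single animal.

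Wnt ligands bind a Frizzled receptor and an LRP co-receptor, which stops the destruction of β-catenin and lets it switch on genes together with TCF/LEF factors. In the liver, endothelial cells of the central vein and sinusoids secrete Wnt ligands and R-spondins, so this signaling is strongest in the hepatocytes nearest to the central vein. Those hepatocytes make glutamine from ammonia that has escaped the urea cycle of the periportal hepatocytes.

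Promoter sequences were looked up because β-catenin acts through TCF/LEF factors at DNA. The RefSeq promoter table of GRCm38.p6, with 300 bases around each start, held entries for 5 of the 10 genes: Axin2, Glul, Oat, Rnf43 (with 2 windows) and Slc1a2. Both strands were searched for the TCF/LEF-type letters CTTTGAA and CTTTGAT. A match was found in 1 of the 6 windows, that of Slc1a2, and 8.65% of all 32851 windows in the table held one. The 250 bases before the start are shown for Slc1a2 (chr2:102706188-102706437, plus strand), with the match in capitals, written as its reverse complement. Those of Axin2 (chr11:108920099-108920348, plus strand), a standard readout of Wnt signaling, are shown because no match was found in them. A match or its absence in so short a window says nothing of binding.
Slc1a2: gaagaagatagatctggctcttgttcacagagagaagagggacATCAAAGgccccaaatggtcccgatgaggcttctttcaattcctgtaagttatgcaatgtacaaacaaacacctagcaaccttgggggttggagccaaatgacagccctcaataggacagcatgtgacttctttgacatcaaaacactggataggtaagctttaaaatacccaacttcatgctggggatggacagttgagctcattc
Axin2: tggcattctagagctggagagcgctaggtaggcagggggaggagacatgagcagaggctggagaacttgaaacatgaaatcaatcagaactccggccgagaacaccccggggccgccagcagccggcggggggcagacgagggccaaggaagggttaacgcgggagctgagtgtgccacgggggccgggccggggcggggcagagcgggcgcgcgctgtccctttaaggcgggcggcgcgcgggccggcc

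None of the 10 genes passed the test between IXA4-treated and vehicle-treated livers. Counts were tested with edgeR's quasi-likelihood test at an adjusted p under 0.05, with adjustment over 12427 genes. Of all genes tested, 3.69% were higher and 0.982% were lower with IXA4. DESeq2 called 0 of the 10 as well. At an unadjusted p under 0.05 there was 1 of 10, Znrf3, against 19.4% of all genes. The IXA4 and vehicle groups overlapped for each of the 10 genes, whereas 12.7% of all genes had groups that did not overlap. Fold changes were negative for 7 genes and positive for 3, with a median log2 fold change of -0.18, beside -0.02 over all genes tested, of which 52.1% were negative. In bulk liver RNA, fewer pericentral cells and less RNA per cell cannot be told apart.

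**Figure D1:**
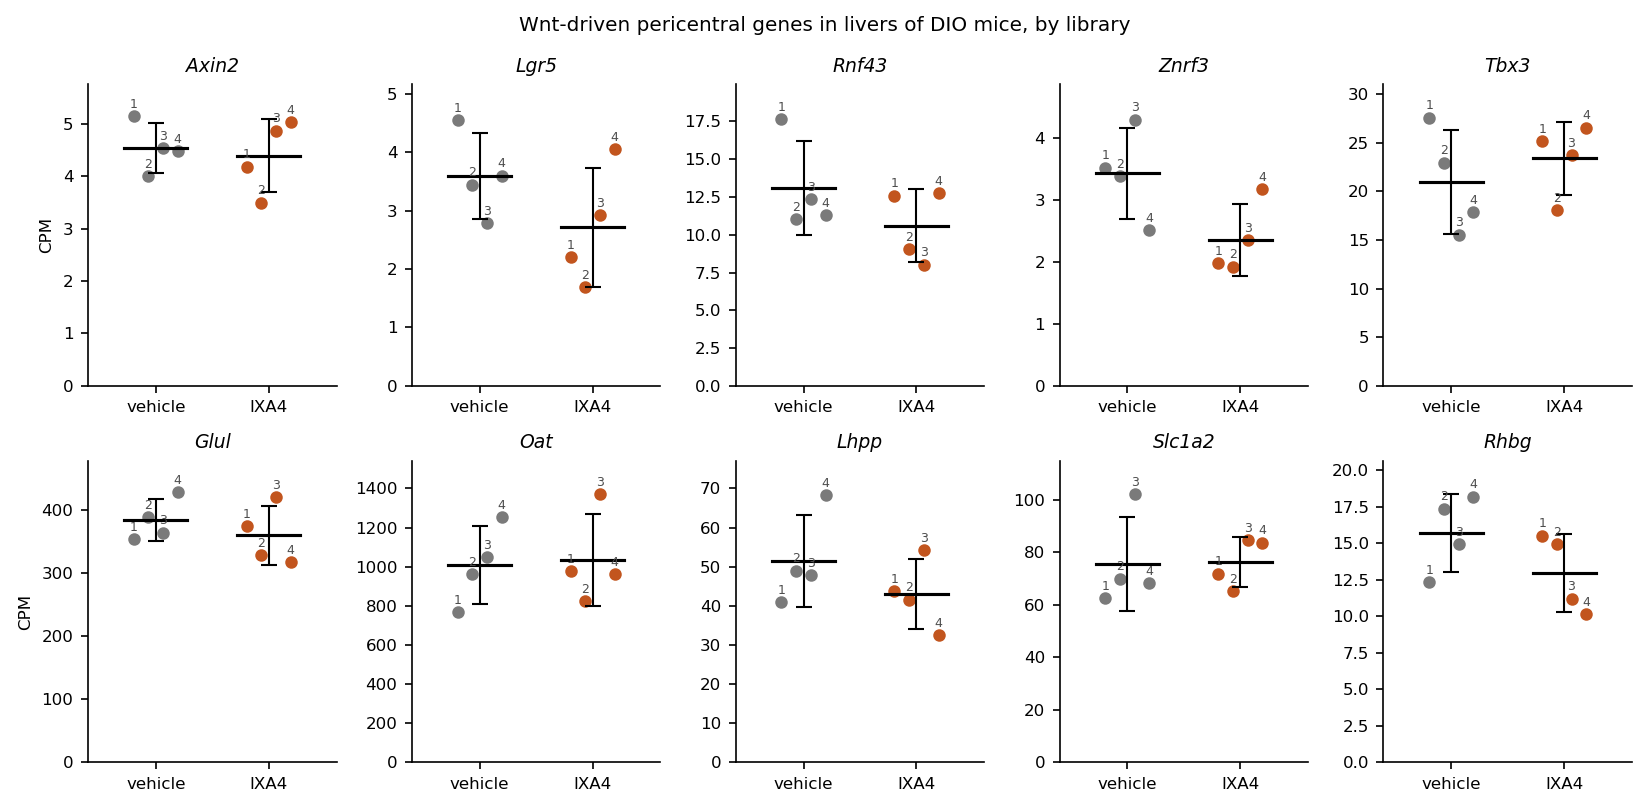
Level of each gene in CPM (counts scaled to the normalized library size) in the 4 vehicle libraries (grey) and the 4 IXA4 libraries (orange), numbered by replicate; lines are means and bars are SD. The groups overlap in each of the 10 panels.

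Levels per length differed widely among the genes. In vehicle livers the mean level per kilobase of exon (RPKM, from CPM and GENCODE exon lengths) was 468 for Oat, 115 for Glul and 24.7 for Lhpp, the enzyme genes of the group. It was 6.92 for Rhbg, 5.76 for Slc1a2 and 3.91 for Tbx3. The Wnt feedback genes were lowest, at 1.99 for Rnf43, 0.824 for Axin2, 0.434 for Znrf3 and 0.350 for Lgr5. The ranges over the 4 vehicle libraries overlapped between Rhbg and Slc1a2, between Slc1a2 and Tbx3, and between Znrf3 and Lgr5, so those neighbours in the order were not separated.

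Axin2 encodes a scaffold of the β-catenin destruction complex and is a negative feedback target of the pathway. It lies on chromosome 11 at 108781663 to 108812097 (NCBIM37, plus strand). Axin2 measured 5.14, 3.998, 4.54 and 4.47 CPM in vehicle replicates 1 to 4 and 4.18, 3.496, 4.87 and 5.03 CPM in IXA4 replicates 1 to 4. IXA4 replicates 3 and 4 lay above the vehicle mean and IXA4 replicates 1 and 2 below it. The log2 fold change was -0.05 (SE 0.17, 95% interval -0.41 to 0.32, edgeR adjusted p = 0.910).

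Lgr5 encodes an R-spondin receptor that raises the sensitivity of a cell to Wnt ligands. It lies on chromosome 10 at 114887367 to 115024836 (minus strand). Lgr5 measured 4.55, 3.44, 2.78 and 3.60 CPM with vehicle and 2.20, 1.69, 2.92 and 4.05 CPM with IXA4, in replicate order. IXA4 replicates 1 and 2 were below every vehicle library, while IXA4 replicate 4 was above 3 of them. The log2 fold change was -0.40 (SE 0.26, 95% interval -0.96 to 0.16, edgeR adjusted p = 0.432). Only 29 to 84 counts stood behind each value.

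Rnf43 and Znrf3 encode related ubiquitin ligases that remove Frizzled receptors from the cell surface, and R-spondins act by clearing these ligases. Both lie on chromosome 11, Rnf43 at 87476224 to 87549041 (plus strand) and Znrf3 at 5176327 to 5344850 (minus strand). Rnf43 measured 17.6, 11.05, 12.3 and 11.3 CPM with vehicle and 12.6, 9.03, 8.02 and 12.8 CPM with IXA4. All 4 IXA4 libraries were below the vehicle mean of Rnf43, which vehicle replicate 1 raised. Its log2 fold change was -0.30 (SE 0.19, 95% interval -0.72 to 0.11, edgeR adjusted p = 0.418). Znrf3 measured 3.52, 3.39, 4.29 and 2.51 CPM with vehicle and 1.98, 1.92, 2.35 and 3.17 CPM with IXA4. For Znrf3, 3 of the 4 IXA4 libraries were below every vehicle library, and IXA4 replicate 4 fell among them. Its log2 fold change of -0.53 was the lowest of the 10 genes (SE 0.23, 95% interval -1.03 to -0.04, edgeR adjusted p = 0.217), from 33 to 71 counts per library. The two-sided exact permutation test of the difference in mean log2 CPM gave p = 0.0571 for Znrf3, where the smallest possible value is 0.0286.

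Tbx3 encodes a T-box transcription factor that β-catenin activates in liver. It lies on chromosome 5 at 120120678 to 120134733 (plus strand). Tbx3 measured 27.6, 22.9, 15.5 and 17.8 CPM with vehicle and 25.2, 18.1, 23.7 and 26.5 CPM with IXA4. Each IXA4 value fell inside the vehicle range. IXA4 over vehicle gave a log2 fold change of 0.16 (SE 0.18, 95% interval -0.23 to 0.54, edgeR adjusted p = 0.682).

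**Figure D2:**
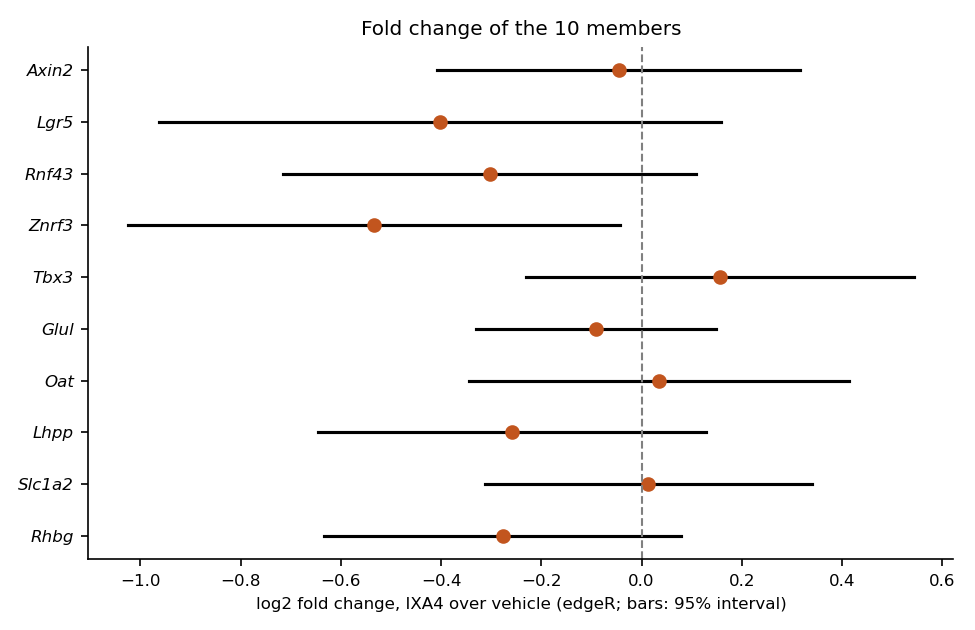
The log2 fold change of each gene, IXA4 over vehicle (points), with its 95% interval from edgeR (bars); the dashed line marks no change. The interval of Znrf3 runs from -1.03 to -0.04, and those of the other genes include 0.

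Glul encodes glutamine synthetase, which joins ammonia to glutamate and marks the hepatocytes next to the central vein. It lies on chromosome 1 at 155747074 to 155756853 (plus strand). Glul measured 353, 388, 364 and 428 CPM with vehicle and 374, 328, 419 and 317 CPM with IXA4. IXA4 replicates 2 and 4 were below every vehicle library and IXA4 replicate 3 was near the highest. Glul had a log2 fold change of -0.09 (SE 0.11, 95% interval -0.33 to 0.15, edgeR adjusted p = 0.703). That interval corresponds to 0.795-fold to 1.11-fold, the narrowest of the 10 genes.

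Oat encodes ornithine aminotransferase, a mitochondrial enzyme that turns ornithine into a precursor of glutamate, and Lhpp encodes a phosphohistidine phosphatase. The genes are neighbours on chromosome 7, Oat at 139749158 to 139768081 (minus strand) and Lhpp at 139802321 to 139898103 (plus strand), 34239 bases apart and transcribed away from each other. Oat measured 768, 963, 1048 and 1254 CPM with vehicle and 977, 823, 1370 and 962 CPM with IXA4. The highest Oat value was in IXA4 replicate 3 and the lowest in vehicle replicate 1. Its log2 fold change was 0.03 (SE 0.17, 95% interval -0.34 to 0.41, edgeR adjusted p = 0.935). Lhpp measured 40.9, 49.0, 47.9 and 68.2 CPM with vehicle and 43.8, 41.6, 54.3 and 32.4 CPM with IXA4. Vehicle replicate 4 was the highest and IXA4 replicate 4 the lowest for Lhpp. Its log2 fold change was -0.26 (SE 0.18, 95% interval -0.65 to 0.13, edgeR adjusted p = 0.464).

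Slc1a2 encodes a sodium-coupled glutamate transporter, which supplies glutamate for glutamine synthesis. It lies on chromosome 2 at 102498816 to 102630941 (NCBIM37, plus strand). The TCF/LEF-type match shown above is in the window listed for Slc1a2 on GRCm38.p6. That is another build, and whether the window lies at the start of the gene given here was not tested. Slc1a2 measured 62.5, 70.01, 102 and 68.4 CPM with vehicle and 72.0, 65.3, 84.7 and 83.8 CPM with IXA4. Each IXA4 value fell inside the vehicle range. This gave a log2 fold change of 0.01 (SE 0.15, 95% interval -0.31 to 0.34, edgeR adjusted p = 0.971).

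Rhbg encodes an ammonia transporter of the Rhesus family. It lies on chromosome 3 at 88046796 to 88091132 (minus strand). Rhbg measured 12.3, 17.4, 14.9 and 18.2 CPM with vehicle and 15.5, 15.0, 11.2 and 10.2 CPM with IXA4. All 4 IXA4 libraries were below the vehicle mean of Rhbg, and IXA4 replicates 3 and 4 were below every vehicle library. For Rhbg the log2 fold change was -0.28 (SE 0.16, 95% interval -0.63 to 0.08, edgeR adjusted p = 0.389).

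Exons of 5 of these genes overlap those of another annotated gene, Axin2 by 209 bases, Slc1a2 by 189, Rhbg by 145, Tbx3 by 115 and Glul by 67. For Rhbg the other gene lies on the same strand, so strand would not separate those reads. For the rest, no source used here says whether counting took strand into account. Reads from all these stretches are therefore uncertain. The same holds for reads shared by near-identical copies.

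Averaged over all 10 genes, the IXA4 libraries lay below the vehicle libraries. The mean deviation of the 10 genes from their vehicle mean, in log2 CPM, was -0.15, -0.38, -0.07 and -0.08 in IXA4 replicates 1 to 4 and ran from -0.03 to 0.03 in the vehicle libraries, so the groups did not overlap. This is a description of genes chosen with earlier results known, and it was not tested. How often other sets of 10 genes have groups that do not overlap was not computed. IXA4 replicate 2 was below the vehicle mean for 10 of the 10 genes, IXA4 replicate 1 for 9, IXA4 replicate 4 for 6 and IXA4 replicate 3 for 4. Single genes differed from that mean. Vehicle replicate 1 was the highest of the 8 libraries for Axin2, Lgr5, Rnf43 and Tbx3 and the lowest for Oat and Slc1a2. For the 4 feedback genes the mean deviation ran from -0.15 to 0.26 in vehicle libraries and from -0.66 to 0.06 in IXA4 libraries. For the 5 enzyme and transporter genes it ran from -0.27 to 0.21 with vehicle and from -0.28 to 0.08 with IXA4. Within each of these smaller sets the ranges of the groups overlap. The narrow vehicle range over all 10 genes hides opposite deviations within a library. In vehicle replicate 1 the mean was 0.26 for the feedback genes and -0.27 for the enzyme and transporter genes, beside 0.01 over all 10.

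**Figure D3:**
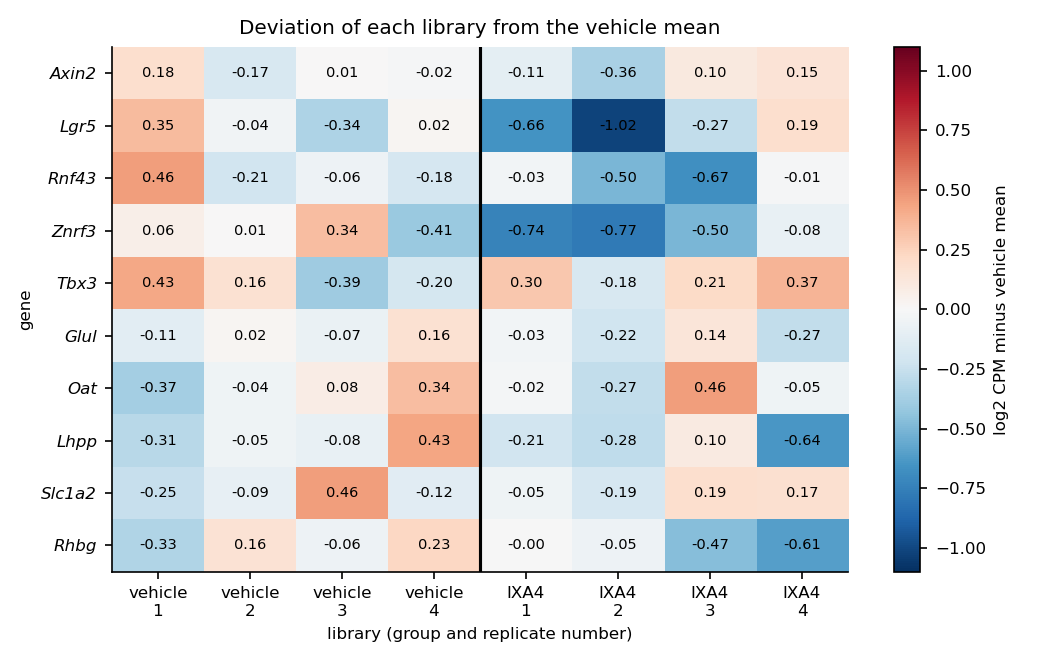
Deviation of each library (columns) from the vehicle mean of each gene (rows), in log2 CPM, with red for higher and blue for lower. In vehicle replicate 1 the feedback genes are mostly red and the enzyme and transporter genes are blue.

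By root mean square difference of centred log2 CPM over the 8 libraries, the genes most like Glul were Crim1 (0.053), Zwint (0.059) and Bhmt2 (0.061). Those most like Axin2 were Asxl1 (0.039), Crk (0.057) and Zfp362 (0.066). These are descriptions of 8 points that share their libraries.

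Upstream of these genes, 6 of 14 genes for Wnt ligands, R-spondins and Wnt release had enough counts to test, and 0 passed. At an unadjusted p under 0.05 there were 2, both lower, and DESeq2 called 1. Wls, which carries Wnt proteins to the cell surface and was the most abundant, had a log2 fold change of 0.06 (edgeR adjusted p = 0.899). Both low genes were picked after their values were seen. Wnt2, a ligand made by liver endothelial cells, measured 3.25, 3.78, 1.27 and 4.31 CPM with vehicle and 1.24, 0.932, 1.49 and 1.70 CPM with IXA4. Its 4 IXA4 values all lay below 3 vehicle libraries, but vehicle replicate 3 was as low as they were. The log2 fold change of Wnt2 was -1.23 (SE 0.34, edgeR adjusted p = 0.0605). It passed with DESeq2 (adjusted p = 0.0135) and with edgeR when vehicle replicate 3 was left out (adjusted p = 0.00698). Rspo3, an R-spondin of central vein endothelium, measured 2.49, 2.83, 2.00 and 3.44 CPM with vehicle and 1.19, 1.92, 1.77 and 1.53 CPM with IXA4. The groups did not overlap for Rspo3, and its log2 fold change was -0.75 (SE 0.24, edgeR adjusted p = 0.101).

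Markers of endothelial cells, the source of these ligands, were examined in the same libraries. Of 12 endothelial markers, 2 fell, 0 rose and 10 did not pass, with a median log2 fold change of -0.54. The VEGF receptor gene Kdr fell by 0.93 on the log2 scale (edgeR adjusted p = 0.0127), and the angiopoietin receptor gene Tek fell by 1.02 (edgeR adjusted p = 0.0366). Stab2, the most abundant that did not pass, had a log2 fold change of -0.37. Tek lost its call when any 1 of 6 libraries was left out, among them vehicle replicate 2 (adjusted p = 0.122). The summed level of the 12 markers was 81.9 to 153 CPM with vehicle and 68.1 to 99.6 CPM with IXA4, and vehicle replicate 3 was the lowest vehicle library. The part of endothelial RNA in the levels of Wnt2 and Rspo3 was not tested.

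**Figure D4:**
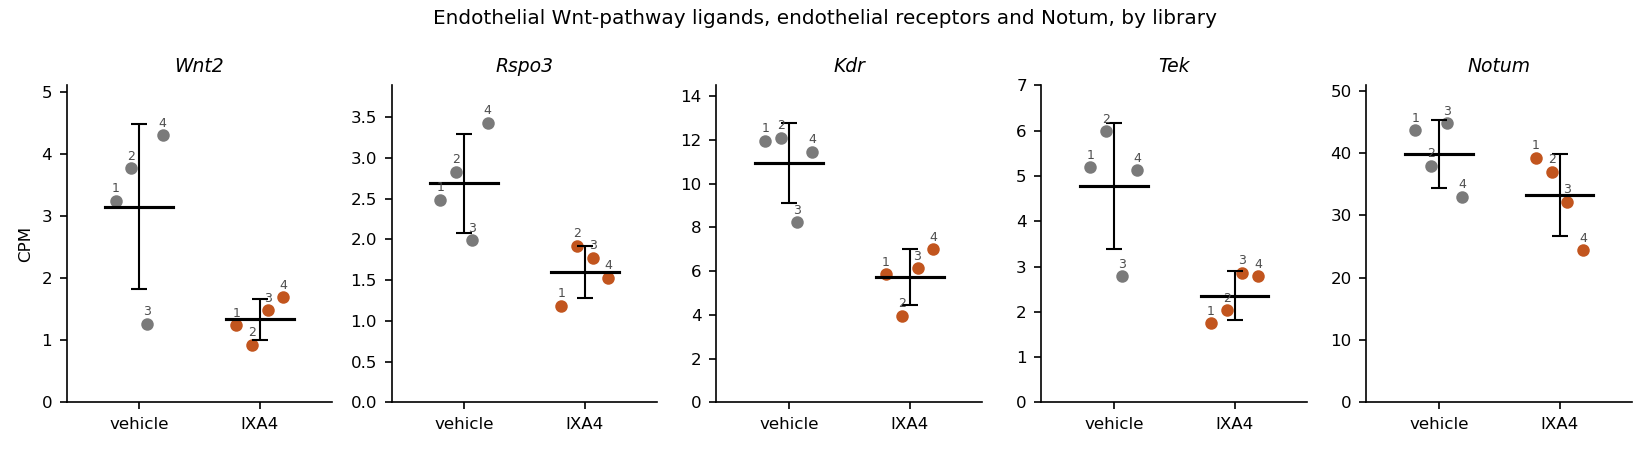
CPM of Wnt2 and Rspo3, the endothelial receptors Kdr and Tek, and Notum in each library, numbered by replicate, with means and SD. Vehicle replicate 3 is the lowest vehicle library for Wnt2, Rspo3, Kdr and Tek, and the highest for Notum.

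Of 14 Wnt receptor and co-receptor genes, 10 were tested and 0 passed, with 3 at an unadjusted p under 0.05, all lower, and 1 called by DESeq2. Their median log2 fold change was -0.06, and the co-receptor gene Lrp5, the most abundant, had -0.30 (edgeR adjusted p = 0.161). Of 23 genes of the β-catenin core, 21 were tested, 0 rose and 1 fell. That gene was Tcf7l1, a TCF factor known mainly as a repressor, which fell by 0.77 (SE 0.19, edgeR adjusted p = 0.0334). Its call was lost when any 1 of 6 libraries was left out, with adjusted p up to 0.111. The β-catenin gene Ctnnb1 had a log2 fold change of 0.03 (edgeR adjusted p = 0.907).

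Among 12 other Wnt feedback targets, 7 were tested, 1 rose and 0 fell. Ccnd1, the cyclin D1 gene, which many growth signals besides Wnt induce, measured 1.25, 2.00, 2.30 and 1.09 CPM with vehicle and 8.30, 3.79, 3.09 and 7.11 CPM with IXA4. Its log2 fold change was 1.76 (SE 0.35, edgeR adjusted p = 0.0176), and the call was lost without vehicle replicate 1 (adjusted p = 0.0688) or vehicle replicate 4 (adjusted p = 0.0542). Notum, which encodes a secreted enzyme that inactivates Wnt proteins, was the most abundant gene of this list, with a log2 fold change of -0.26 (edgeR adjusted p = 0.360). Of 11 secreted antagonists, 5 were tested, 1 rose and 0 fell. Sfrp1, a secreted Frizzled-like decoy, had 71 counts over the 4 IXA4 libraries and 2 counts over the 4 vehicle libraries, 3 of which had none. When at least 10 counts were required in every library, Sfrp1 was not tested and 0 antagonists rose. It passed in the 13 alternatives that tested it. The ratio of these sums per library size was 35.9, with an exact 95% interval of 9.57 to 302 that covers counting error only. Igfbp4, the most abundant antagonist, had a log2 fold change of -0.16 (edgeR adjusted p = 0.370).

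**Figure D5:**
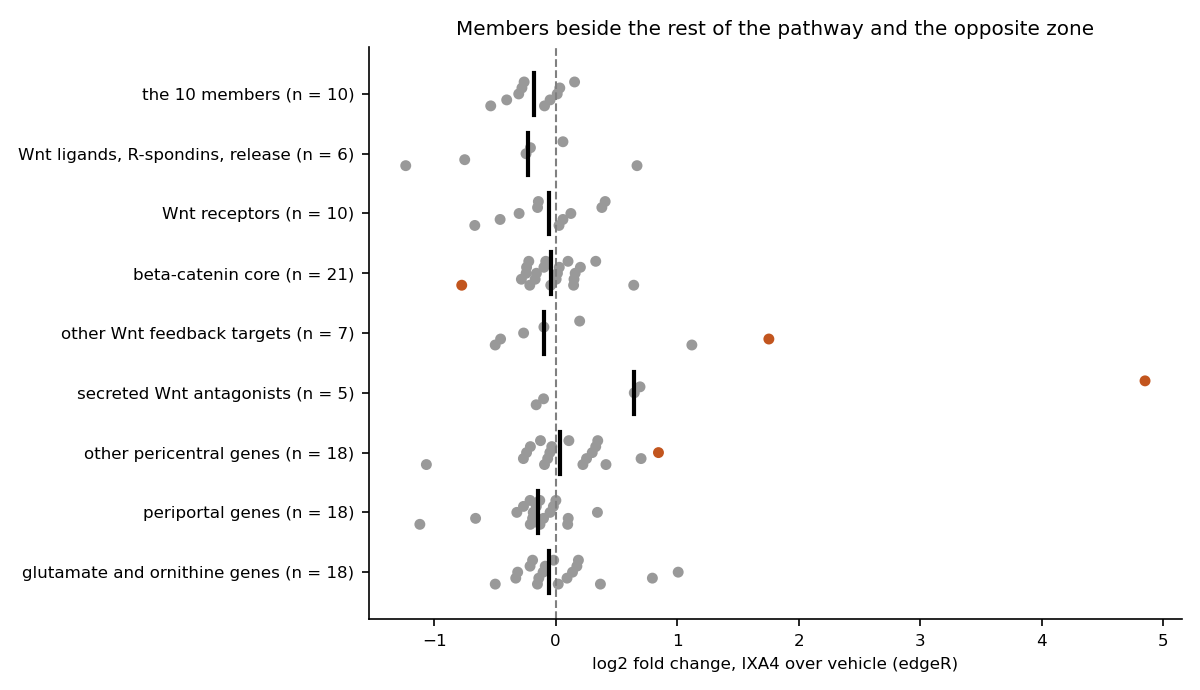
The log2 fold change of each tested gene, IXA4 over vehicle, by gene list; orange points passed the edgeR test, grey points did not, and black bars are medians. The 10 genes described here lie between -0.53 and 0.16.

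Other pericentral genes, many of which depend on signals besides Wnt, were tested beside them. Of 18 tested, 1 rose and 0 fell, with a median log2 fold change of 0.04. At an unadjusted p under 0.05 there were 6, of which 5 were higher and 1 was lower, and DESeq2 called 2 higher and 1 lower. Cyp2c29, a cytochrome P450 gene, measured 4329, 3422, 4902 and 2480 CPM with vehicle and 6381, 5565, 7678 and 7596 CPM with IXA4. Its log2 fold change was 0.85 (SE 0.19, edgeR adjusted p = 0.0295), a call that was lost when any 1 of 5 libraries was left out and with no filter on low counts (adjusted p = 0.0603). Cyp2e1, the most abundant pericentral gene, had a log2 fold change of -0.12 (edgeR adjusted p = 0.610). Of 18 periportal genes, those of the opposite zone, 0 passed, with a median of -0.14, and the gluconeogenic gene Pck1 had -0.32 (edgeR adjusted p = 0.172). At an unadjusted p under 0.05 there were 2 periportal genes, both lower, and DESeq2 called 1. Of 26 genes that handle glutamate, glutamine, ammonia and ornithine, 18 were tested and 0 passed, with 4 at an unadjusted p under 0.05 and 1 called by DESeq2. The glutamine transporter gene Slc38a3 had a log2 fold change of -0.14 (edgeR adjusted p = 0.538).

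Hepatocyte markers were abundant in every library, with 0 of 10 past the edgeR test, 2 at an unadjusted p under 0.05 and 2 called by DESeq2, and the albumin gene Alb had a log2 fold change of -0.05. Of 8 stellate cell markers, 2 fell, Reln by 0.92 and Colec11 by 0.93 on the log2 scale (edgeR adjusted p = 0.00488 and 0.00793). The 8 markers summed to 70.4 to 98.9 CPM with vehicle and 51.5 to 60.7 CPM with IXA4. Of 7 tested cholangiocyte markers, 2 rose, Spp1 by 0.70 and Krt19 by 1.30 (edgeR adjusted p = 0.00281 and 0.0318). The whole list summed to 33.6 to 40.2 CPM with vehicle and 52.0 to 58.0 CPM with IXA4. Of 6 tested mesothelial markers, 1 rose, Upk1b by 1.71 (edgeR adjusted p = 0.0244), Msln had 0.43 without passing, and the sum was 7.15 to 21.1 CPM with vehicle and 10.2 to 40.0 CPM with IXA4. The calls of Krt19 and Upk1b were each lost when 1 of several libraries was left out. Of 8 Kupffer cell markers 0 passed, with 0 at an unadjusted p under 0.05 and 0 called by DESeq2. Clec4f had a log2 fold change of -0.52, and the sum was 153 to 336 CPM with vehicle and 188 to 334 CPM with IXA4. The part of these cell types in the levels of the 10 genes was not tested.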

How the data were processed

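Bulk RNA-seq of 8 livers was analysed. The authors aligned single-end reads to the mouse genome (MGSCv37) with DNAstar SeqManPro and counted them with ArrayStar and QSeq, and the deposited values are raw counts, as whole numbers, per gene symbol. For the annotation, the strand setting and reads with several matches, the settings were not given in the sources used here. Their DESeq comparison (fold changes, p-values) was not used. The 4 vehicle columns are headed as such. The 4 others carry a code that the sample labels do not hold, and were taken as IXA4, the only other treatment.

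Genes were kept by filterByExpr (minimum count 10, minimum total count 15), scaled by TMM and tested by edgeR 4.0.16 (R 4.3.3, robust quasi-likelihood F test, limma 3.58.1) with Benjamini-Hochberg adjustment. The dispersion setting was not the one first run. It was picked out of 24 combinations of edgeR settings because its counts of all genes called equalled those of an earlier analysis of these data. The 24 gave 442 to 468 genes higher and 121 to 127 lower, and none called any of the 10 genes. Standard errors were derived from the F statistic. CPM values are counts scaled to normalized library sizes, and log2 CPM used a prior count of 2. Replicates are separate mice. The script was tested on simulated data.

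The 10 genes and the 14 other lists were chosen with earlier results of these data known. Named were the 10 genes, in each list up to 2 genes of smallest p past the threshold in each direction and the most abundant that did not pass, and the 3 genes most like Glul and Axin2. The values of 2 genes that fall under the rule are left out here. Wnt2 and Rspo3 were named outside this rule, after their values were seen. The alternatives were DESeq2 1.42.0, other scaling and filters, each library left out, and estimateDisp before the fit, the last chosen after seeing the data. Gene positions are GENCODE's on NCBIM37, and promoters are RefSeq's on GRCm38.p6.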

Additional observations from a re-analysis of the deposited data

Results flagged for a closer look

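Of 74 groups of 4 libraries examined for a single library far from the other three, 5 had one, where chance gives about 1 in 20, and none belonged to the 10 genes. Lrp5 measured 52.7 CPM in IXA4 replicate 4 and 66.7 to 68.9 in the other IXA4 libraries. Alb measured 67000 CPM in the same library and 90800 to 91200 in the others. Kdr measured 8.22 CPM in vehicle replicate 3 and 11.5 to 12.1 in the other vehicle libraries. Upk1b measured 1.69 CPM in vehicle replicate 4 and 0.758 to 0.847 in the others. Sfrp1 measured 0.108 CPM in vehicle replicate 1 and 0 in the others.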

How the results depend on the processing

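None of the 10 genes passed in any of the 14 alternatives, and the lowest adjusted p among them was 0.129, for Znrf3. The first edgeR setup, with estimateDisp before the fit, and the 24 combinations of edgeR settings, all run after seeing the data, called 0 of the 10. Directions near 0 turned. With 1 library left out, log2 fold changes ran from -0.118 to 0.0558 for Axin2, from -0.13 to 0.156 for Oat and from -0.0696 to 0.202 for Slc1a2. The other genes kept their direction but not their size, with -0.66 (without IXA4 replicate 4) to -0.23 (IXA4 replicate 2) for Lgr5, -0.41 to -0.13 (vehicle replicate 1) for Rnf43, -0.71 to -0.40 for Znrf3, 0.05 (vehicle replicate 3) to 0.32 (vehicle replicate 1) for Tbx3, -0.17 (IXA4 replicate 3) to -0.03 (vehicle replicate 4) for Glul, -0.39 (IXA4 replicate 3) to -0.09 (vehicle replicate 4) for Lhpp and -0.38 to -0.18 (IXA4 replicate 4) for Rhbg. On total counts alone Oat was -0.00497 and Slc1a2 -0.0112. As a difference in mean log2 CPM on total counts alone, Oat was -0.00217 and Slc1a2 -0.00124. That scaling moved the median of all genes by -0.03, and 9 of the 10 genes were then negative. Of the other genes, Wls was -0.0692 to 0.176, Ctnnb1 -0.0623 to 0.110 and Alb -0.119 to 0.0494 with 1 library left out, and Ctnnb1 was -0.00604 on total counts alone.

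Over all genes DESeq2 called 636 higher and 256 lower, against 458 and 122 with edgeR, and in the other lists 11 higher and 11 lower, against 6 and 5. With 1 library left out, counts over all genes were 252 to 612 higher and 43 to 159 lower, and in the other lists 3 to 9 higher and 3 to 9 lower. The cause was not tested. The groups are separate mice with no stated pairs, so no paired analysis was made. Lgr5, Znrf3 and Axin2 had under 100 counts per library. Their SEs were 0.26, 0.23 and 0.17, and that of Oat, with at least 14130 counts, was also 0.17.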
